A study of Mus musculus with 6 samples.

Results

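The leukocyte integrins are described here through 10 genes, taken by symbol from the 36557 gene rows deposited for the series: the integrin subunits Itgb2, Itgal, Itgam, Itgax, Itgad, Itga4, Itgb7, Itgae and Itgb1, and Fermt3, which encodes the integrin activator kindlin-3. All 10 had rows and all 10 passed the low-count filter, among 17392 genes tested. RNA had been sequenced from aortic arch with thoracic aorta of mice kept on a high-fat diet (HFD) for 4 weeks. Of 6 libraries, 3 were Apoe-/- (controls) and 3 were Apoe-/- MiR26b-/- (called knockouts below); all thus lacked apolipoprotein E, which clears cholesterol-rich lipoproteins from blood. Age and sex were not given in the sources used here, and the labels do not tie each library to a separate animal, so p-values cover the spread among libraries, which may be technical. Smooth muscle markers, which define the labelled tissue, summed to between 30918 and 35518 CPM in controls and between 20899 and 24675 CPM in knockouts.

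Integrins are receptors built from 1 alpha and 1 beta subunit that bind matrix or counter-receptors on other cells. On leukocytes, the beta2 subunit (Itgb2) pairs with Itgal to form LFA-1, with Itgam to form Mac-1, with Itgax to form CD11c/CD18 and with Itgad to form CD11d/CD18; Itga4 pairs with Itgb1 to form VLA-4 or with Itgb7, and Itgae pairs with Itgb7. Several of these receptors hold leukocytes on inflamed endothelium. Kindlin-3 binds integrin beta tails in blood cells and is needed for integrin activation there. The microRNA deleted in the knockouts, miR-26b, shares its seed (bases 2 to 8) with miR-26a, and both RefSeq mature sequences (GRCm38.p6) are shown 5′ to 3′ with the seed in capitals because that seed was searched for in the integrin transcripts.
mmu-miR-26b-5p: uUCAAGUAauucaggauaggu
mmu-miR-26a-5p: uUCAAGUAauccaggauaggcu
Matches searched on the transcript strand were TACTTGA, complementary to the whole seed, TACTTGAA, which adds an A opposite base 1, and ACTTGAA, which pairs with bases 2 to 7 and has that A; the first and last lie within the second. Such a match was present in the longest 3′ UTR of 2 of the 10 integrin genes, Itgal and Itgb1, and in 20.9% of the 16142 tested genes with an annotated 3′ UTR. The median 3′ UTR of those genes was 1192 bases long, and the members' ranged from 165 bases (Itgb7) to 6508 bases (Itga4).

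Counts summed to between 51634139 and 54817547 per library. On principal component 1 of the tested genes, knockout replicate 3 lay between both groups (0.97, against -45.35 to -25.42 for controls and 47.05 and 55.72 for the other knockouts). Pan-leukocyte markers summed to between 139 and 285 CPM in controls and between 374 and 962 CPM in knockouts, with knockout replicate 3 lowest of the knockouts. All 8 of these markers were tested and 5 passed, all higher: Laptm5 (4.29-fold), Cd53 (4.62-fold), Lcp1 (4.06-fold), Cd52 (4.18-fold) and Arhgdib (1.95-fold), while Dock2, Coro1a and Ptprc had folds of 2.77, 3.06 and 2.81 with edgeR adjusted p of 0.0581, 0.089 and 0.0926. Of all tested genes 6.5% passed as higher. In bulk tissue, more cells of a type and more RNA per cell cannot be told apart. No pan-leukocyte marker was at 0 in all libraries, and the part of leukocyte content in the integrin results was not tested. The level of miR-26b itself was not analysed here, so its deletion was not checked.

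Myeloid integrin genes were higher in knockout aortas, and the widely expressed beta1 gene was lower. The quasi-likelihood test of edgeR, with p adjusted over all tested genes by Benjamini and Hochberg, called a gene at an adjusted p under 0.05. Itgax, Itgb2, Itgam and Fermt3 rose (4 of 10, against 6.5% of all tested genes called higher) and Itgb1 fell (1 of 10, against 3.84% called lower; 10.3% of genes were called in either direction). The other members, Itgae, Itga4, Itgal, Itgb7 and Itgad, had positive log2 differences that did not pass. The median log2 difference over the 10 genes was 1.19, beside -0.0033 over all tested genes. The groups did not overlap for 6 members with knockouts higher and for 1 with knockouts lower, where 18.9% and 17.2% of all tested genes had no overlap in those directions. With any library other than knockout replicate 3 left out, edgeR called 0 of the 10, although 6 to 8 were higher and 1 lower at an unadjusted p under 0.05; over the whole table it then called at most 0.293% of genes higher. Without knockout replicate 3 it called 6 members higher and 1 lower, against 17.2% and 11.4% of all genes. The 5 calls were also lost with brown fat markers as a covariate (mean centred log2 CPM of -0.42 to 1.38 in controls and of -1.32 to 0.73 in knockouts), where 5 members were higher and 1 lower at an unadjusted p under 0.05. Limma-voom called Itgax alone (adjusted p = 0.0465, with 3.21% of all genes called higher and 2.96% lower), and DESeq2 called 6 members higher and 1 lower (11.7% and 7.28% of all genes).

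**Figure D1:**
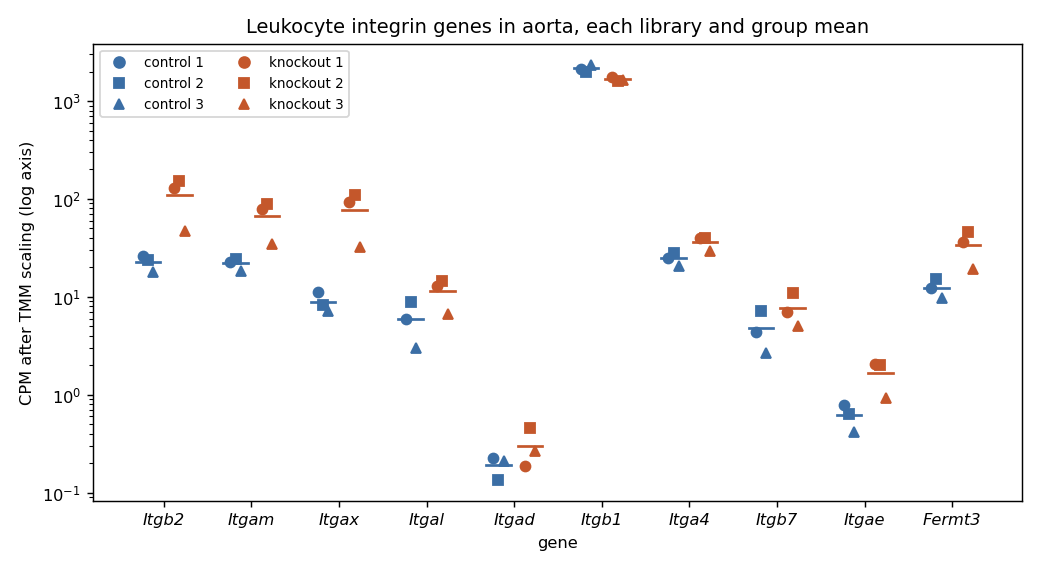
Level of each leukocyte integrin gene in CPM after TMM scaling (log axis), 1 point per library (blue controls, orange knockouts) with a line at the group mean. Knockout replicate 3 (orange triangle) lies nearest the controls for Itgb2, Itgam, Itgax and Fermt3, and Itgb1 stands far above the other genes in both groups.

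The shared beta chain of the leukocyte family, Itgb2 (ENSMUSG00000000290, chromosome 10, 77530252 to 77565708, GRCm38, plus strand), stood at 26.2, 23.8 and 18.1 CPM across controls 1 to 3 and at 129.9, 151 and 46.8 CPM across knockouts 1 to 3. Every knockout lay above every control, with knockout replicate 3 less than the other knockouts by more than the whole spread of the controls. The mean went from 22.7 ± 4.19 to 109 ± 55.2 CPM (SD, n = 3 per group), a rise of 4.81-fold (log2 2.27, SE 0.43, edgeR adjusted p = 0.0325). Without control replicates 1, 2 or 3 or knockout replicates 1 or 2 the adjusted p was 0.118, 0.0899, 0.126, 0.129 and 0.105; without knockout replicate 3 it was 0.000395.

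The alpha chains of CD11c/CD18 and Mac-1 also rose. Itgax, the CD11c gene carried by dendritic cells and many plaque macrophages (ENSMUSG00000030789, chromosome 7, 128129547 to 128150657, plus strand), stood at 11.3, 8.32 and 7.09 CPM across controls 1 to 3 and at 92.2, 109 and 32.5 CPM across knockouts 1 to 3. The lowest knockout was well above the highest control. The rise from 8.91 ± 2.18 to 77.8 ± 40.1 CPM was 8.73-fold (log2 3.13, SE 0.46, edgeR adjusted p = 0.0245), which is the largest fold among the 10 members. Itgam, the CD11b gene of monocytes, macrophages and neutrophils (ENSMUSG00000030786, chromosome 7, 128062640 to 128118491, plus strand), stood at 22.7, 24.6 and 18.5 CPM across controls 1 to 3 and at 78.1, 87.8 and 34.4 CPM across knockouts 1 to 3. Knockouts were again all above controls, and the mean went from 21.9 ± 3.10 to 66.8 ± 28.4 CPM, a 3.05-fold rise (log2 1.61, SE 0.34, edgeR adjusted p = 0.0384). Left-out controls 1, 2 and 3 and knockouts 1 and 2 gave adjusted p of 0.112, 0.0785, 0.107, 0.113 and 0.0796 for Itgax and of 0.128, 0.0924, 0.141, 0.144 and 0.119 for Itgam.

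Itgam, Itgax and Itgad lie side by side on the same strand of chromosome 7. Itgax starts 11055 bases after Itgam ends, Itgad starts 3718 bases after Itgax ends, and the 3 genes span 161177 bases, while Itgal lies 727501 bases before Itgam. RefSeq promoter windows (250 bases before to 50 after the start, GRCm38.p6) were matched for 6 of the 10 genes: Itgam, Itgax, Itga4, Itgb7, Itgb1 and Fermt3. The core letters GAGGAA, bound by the myeloid factor PU.1, or TTCCTC on the opposite strand, were searched in them with no other motif. They occurred in 3 of the 6 windows (Itgam, Itgb7 and Itgb1) and in 28.3% of the 32851 RefSeq windows. The 150 bases before the start are shown for the neighbours Itgam and Itgax, which rose, and for Itgb1, which fell, with matches in capitals; starts are RefSeq's, which for Itgax differs slightly from that of GENCODE.
Itgam, chr7:128062490-128062639, plus strand: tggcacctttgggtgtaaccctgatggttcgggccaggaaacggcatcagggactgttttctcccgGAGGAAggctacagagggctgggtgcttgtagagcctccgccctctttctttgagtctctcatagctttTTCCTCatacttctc
Itgax, chr7:128129400-128129549, plus strand: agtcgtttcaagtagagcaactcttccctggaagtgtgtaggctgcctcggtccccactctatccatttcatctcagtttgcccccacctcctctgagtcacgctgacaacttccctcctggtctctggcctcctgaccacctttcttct
Itgb1, chr8:128685504-128685653, plus strand: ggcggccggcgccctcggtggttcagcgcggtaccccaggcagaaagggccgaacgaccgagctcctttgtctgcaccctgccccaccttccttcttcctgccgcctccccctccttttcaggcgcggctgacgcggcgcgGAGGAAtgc
Itgam held 3 matches, starting 84 and 15 bases before and 33 bases after the start, the last outside the letters shown. Itgax held 0, and Itgb1 held 1, starting 9 bases before its start. CG pairs numbered 6 in the 300-base Itgam window, 5 in that of Itgax and 27 in that of Itgb1, against a median of 7 over all windows.

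The remaining alpha partners of beta2 did not pass the test. Itgal, the LFA-1 chain carried by lymphocytes and other leukocytes (ENSMUSG00000030830, chromosome 7, 127296260 to 127335138, plus strand), stood at 5.99, 8.82 and 3.02 CPM across controls 1 to 3 and at 13.0, 14.7 and 6.72 CPM across knockouts 1 to 3. Control replicate 2 lay above knockout replicate 3, so the groups overlapped, and the log2 difference was 0.95 (SE 0.43, edgeR adjusted p = 0.198). Control replicate 2 also held the highest summed B cell markers of the 6 libraries (65.4 CPM, against 6.46 to 10.1 CPM in the others), none of which was at 0 in every library; their part in the Itgal level was not tested. Its 1528-base 3′ UTR held 1 miR-26 match (TACTTGA, bases 1263 to 1269), shown with 10 bases on each side.
Itgal 3′ UTR site: caaataaactTACTTGAgtgtgctagt
Itgad, the CD11d gene (ENSMUSG00000070369, chromosome 7, 128154376 to 128223816, plus strand), was near the floor of detection, at estimated counts of 12.3, 7.41 and 11.1 in the controls and 10.1, 23.6 and 14.2 in the knockouts. Its groups overlapped (log2 0.66, SE 0.42, edgeR adjusted p = 0.333).

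**Figure D2:**
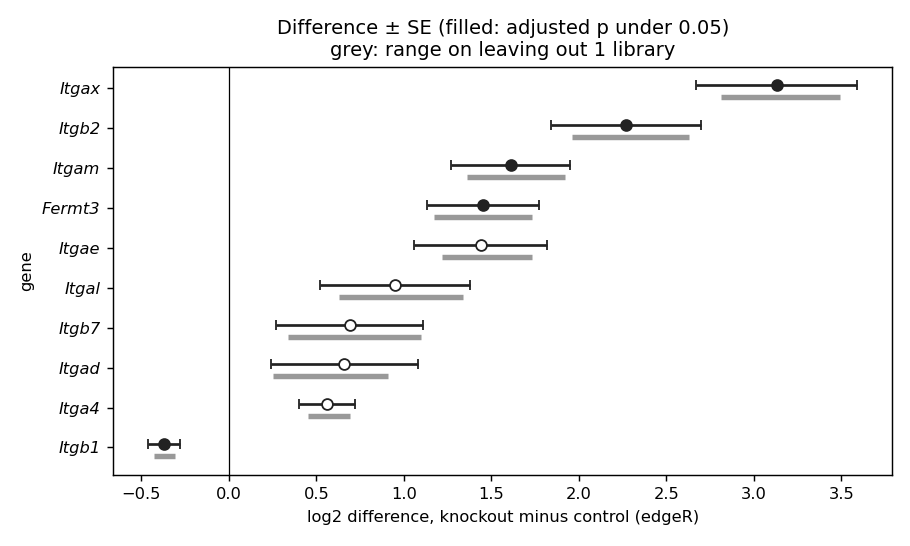
Log2 difference (knockout minus control) of each leukocyte integrin gene from edgeR with its standard error; filled points have an adjusted p under 0.05, and grey bars give the range of the value when 1 library at a time is left out. Itgax has the highest value, 3.13, and Itgb1 alone lies below 0, at -0.37; no grey bar crosses 0.

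The make-up of the beta2 family by alpha chain differed between groups, with Itgam first in every control and Itgax first in every knockout. Levels of different genes were compared on the deposited length-scaled table (rescaled TPM). Itgax took 33.6, 24.2 and 25.3% across controls 1 to 3 and 56.0, 57.3 and 50.9% across knockouts 1 to 3 of the summed rescaled TPM of the 4 alpha genes, on average 27.7 ± 5.17% and 54.7 ± 3.39% (SD, n = 3). Itgam took 48.8, 54.6 and 53.9% across controls 1 to 3 and 36.1, 35.0 and 38.9% across knockouts 1 to 3. The shares of both genes did not overlap between groups, and knockout replicate 3 stood with the other knockouts. The Itgal share went from 13.1 ± 4.94% to 6.76 ± 1.0%. An exact two-sided permutation test over the libraries gave p = 0.1 for each of the 4 shares, the smallest p that 3 against 3 libraries allow, so none can pass 0.05. From CPM in place of rescaled TPM the Itgad share differed by -0.312 percentage points rather than -4.82, and it rests on 7.41 to 23.6 estimated counts per library.

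**Figure D3:**
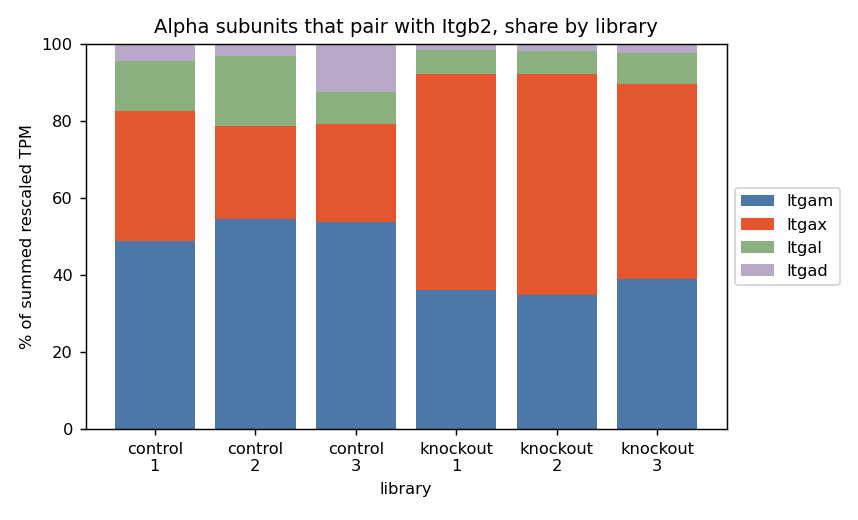
Share (%) of each alpha gene in the summed rescaled TPM of Itgam, Itgax, Itgal and Itgad, 1 bar per library. Itgax takes 24.2% to 33.6% in the controls and 50.9% to 57.3% in the knockouts.

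Relative to its beta partner on the same scale, Itgax had a higher ratio to Itgb2 in every knockout than in any control: the log2 ratio was -1.50, -1.88 and -1.72 in the controls and -0.82, -0.79 and -0.80 in the knockouts, a difference of 0.89. The ratio of Itgam to Itgb2 was -0.96, -0.70 and -0.63 in the controls and -1.45, -1.50 and -1.19 in the knockouts, a difference of -0.62. For Itgal and Itgad the differences were -1.0 and -1.70. Each of these 4 ratios had an exact permutation p = 0.1 (two-sided, smallest possible), among 7 pairs compared, and their groups did not overlap. The Itgad ratio rests on 7.41 to 23.6 estimated counts per library. Its estimated count per unit of rescaled TPM varied by a factor of 2.78 over the libraries. The ratios of Itga4 and Itgae to Itgb7 differed by -0.23 and 0.59, with exact permutation p of 0.4 and 0.3. In these libraries the mean difference of Itgb2 was thus between that of Itgax and those of Itgam, Itgal and the low-count Itgad.

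Among the alpha4 and beta7 genes, none passed. Itga4, the alpha chain of the VCAM-1 receptor VLA-4 (ENSMUSG00000027009, chromosome 2, 79255426 to 79333123, plus strand), stood at 25.1, 28.3 and 20.6 CPM across controls 1 to 3 and at 39.9, 39.8 and 29.6 CPM across knockouts 1 to 3. The groups did not overlap, but the lowest knockout and the highest control were close, and the log2 difference was 0.56 (SE 0.16, edgeR adjusted p = 0.0665). Itgb7, the beta chain of the gut-homing receptor with Itga4 (ENSMUSG00000001281, chromosome 15, 102215995 to 102231944, minus strand), stood at 4.42, 7.18 and 2.68 CPM across controls 1 to 3 and at 7.02, 11 and 5.0 CPM across knockouts 1 to 3. Control replicate 2 lay above knockout replicates 1 and 3, and the log2 difference was 0.69 (SE 0.42, edgeR adjusted p = 0.317). That library is the one with the high B cell marker sum given above, whose part in the Itgb7 level was not tested. Itgae, the CD103 gene of tissue-resident T cells and some dendritic cells (ENSMUSG00000005947, chromosome 11, 73090583 to 73147446, plus strand), was low, at 0.794, 0.634 and 0.418 CPM across controls 1 to 3 and at 2.06, 2.03 and 0.928 CPM across knockouts 1 to 3. Its groups did not overlap, with a log2 difference of 1.44 (SE 0.38, edgeR adjusted p = 0.0598). Leaving out knockout replicate 3 gave edgeR adjusted p of 0.00981 for Itga4 and 0.00658 for Itgae, both then called higher. In that fit 17.2% of all tested genes were called higher.

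Itgb1, the beta chain of VLA-4 and of most matrix-binding integrins of smooth muscle, endothelium and fibroblasts (ENSMUSG00000025809, chromosome 8, 128685654 to 128733200, plus strand), was lower. It stood at 2123, 2001 and 2351 CPM across controls 1 to 3 and at 1755, 1604 and 1641 CPM across knockouts 1 to 3. Every knockout lay below every control, and knockout replicate 3 did not stand apart. The mean went from 2158 ± 178 to 1667 ± 79.1 CPM, 1.29-fold lower (log2 -0.37, SE 0.09, edgeR adjusted p = 0.0455). When libraries were scaled by their totals alone, the adjusted p was 0.0583, and without control replicates 1, 2 or 3 or knockout replicates 1 or 2 it was 0.14, 0.0877, 0.142, 0.14 and 0.155. Smooth muscle markers moved in the same direction, 4 of 6 being called lower (against 3.84% of all tested genes), with sums given above. Their part in the Itgb1 level was not tested. The 1112-base 3′ UTR of Itgb1 held 1 miR-26 match (TACTTGA, bases 600 to 606).
Itgb1 3′ UTR site: cattgtgagtTACTTGAtcctgtaact
The log2 ratio of Itga4 to Itgb1 in rescaled TPM was -7.77, -7.52 and -8.19 in the controls and -6.85, -6.69 and -7.20 in the knockouts, so Itga4 messages were far below those of Itgb1 in every library (exact permutation p = 0.1, the smallest possible).

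Fermt3, the kindlin of blood cells (ENSMUSG00000024965, chromosome 19, 6998958 to 7019469, minus strand), rose. It stood at 12.4, 15.2 and 9.70 CPM across controls 1 to 3 and at 36.4, 46.0 and 19.5 CPM across knockouts 1 to 3. Knockouts were all above controls, with knockout replicate 3 nearest to them, and the mean went from 12.4 ± 2.73 to 33.9 ± 13.4 CPM, 2.73-fold higher (log2 1.45, SE 0.32, edgeR adjusted p = 0.0421). Without control replicates 1, 2 or 3 or knockout replicates 1 or 2 the adjusted p was 0.137, 0.0898, 0.148, 0.148 and 0.126. Platelets also carry kindlin-3: of 7 platelet markers 6 were tested and edgeR called 0 (1 higher at an unadjusted p under 0.05, and 0 called by DESeq2), at sums between 20.8 and 23.9 CPM in controls and between 25.6 and 31.2 CPM in knockouts, and Pf4, the one of lowest p, had a log2 difference of 0.38 (edgeR adjusted p = 0.095). The kindlin of other tissues, Fermt2, fell from 407 ± 32.4 to 299.6 ± 27.0 CPM (1.36-fold lower, edgeR adjusted p = 0.0373), and Fermt1, the epithelial kindlin, was under the low-count filter at 0.133 ± 0.0573 CPM (controls) against 0.151 ± 0.0574 CPM (knockouts).

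On the length-scaled table the order of the 10 genes by mean rescaled TPM in controls was Itgb1 (890.2 ± 73.9), Itgb2 (13.1 ± 2.55), Fermt3 (7.66 ± 1.65), Itgam (7.62 ± 0.895), Itgb7 (6.05 ± 2.35), Itgax (4.08 ± 1.19), Itga4 (3.94 ± 0.588), Itgal (1.96 ± 0.891), Itgad (0.912 ± 0.559) and Itgae (0.252 ± 0.0772). Each pair of neighbours from Fermt3 to Itga4 overlapped over the libraries, as did Itgal and Itgad; the other neighbours did not. In knockouts Itgax moved to the third place (35.5 ± 17.9), behind Itgb1 (701 ± 38.4) and Itgb2 (61.8 ± 31.0) and before Itgam (22.9 ± 9.90) and Fermt3 (21.4 ± 8.50). Neighbours from Itgb2 to Fermt3 overlapped there, and knockout replicate 3 was the lowest knockout for all 4. Itgb7 (10.1 ± 1.91), Itga4 (5.87 ± 1.05), Itgal (4.10 ± 1.51), Itgad (1.12 ± 0.426) and Itgae (0.697 ± 0.275) followed, with overlap between Itga4 and Itgal and between Itgad and Itgae. Yet Itgad had fewer mean estimated counts than Itgae, 10.3 against 32.4 in controls and 16.0 against 88.5 in knockouts. Its estimated count per unit of rescaled TPM was 7.16 to 19.9, against 127 to 129 for Itgae. For Itgb7 that value was 33.4 to 51.3, against 83.4 to 86.2 for Fermt3. The places of Itgad and Itgb7 thus depend on the transcript lengths used.

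Set against leukocyte marker RNA of the same library, Itgax alone among the 10 was higher in every knockout than in any control. Each gene's CPM was divided by the summed CPM of the 8 pan-leukocyte markers. Its ratio had log2 values of -4.23, -5.10 and -4.29 in the controls and -3.16, -3.15 and -3.52 in the knockouts, a 2.40-fold higher mean. The ratio of Itgb2 was -3.02, -3.58 and -2.94 in the controls and -2.67, -2.67 and -3.00 in the knockouts; the groups overlapped (exact permutation p = 0.2), with a mean difference of 0.40. Itgam differed by -0.21 with overlapping groups (exact permutation p = 0.4). The ratios of Itgal, Itga4, Itgb7, Itgb1 and Fermt3 were lower in every knockout than in any control, with differences of -0.71, -1.15, -0.99, -2.08 and -0.33 on the log2 scale. For these 5 and for Itgax the exact two-sided permutation p was 0.1, the smallest possible, among 10 ratios compared. The marker sum was itself higher in every knockout, so a gene that rose less than it, or fell, has a lower ratio. Among controls it was highest in replicate 2 (285 CPM, against 213 and 139 CPM in replicates 1 and 3). That library also has the high B cell marker sum given above, whose part in these ratios was not tested. Itgb1 is widely expressed, so its ratio does not describe leukocytes alone. Itgae and Itgad overlapped, with differences of -0.31 and -1.10. With the summed macrophage and monocyte markers as denominator the Itgax difference was 1.21, without overlap. On that denominator Itgb2 was higher (0.35) and Itgam lower (-0.26) in every knockout, while the Itgal groups overlapped (-0.76, exact permutation p = 0.2). The Itgb2 groups were close, at -5.02 in control replicate 1 and -4.99 in knockout replicate 3. This denominator includes Mertk, which fell, at a mean of 127 CPM in controls and 107 CPM in knockouts. Ratios without Mertk were not tested. Itga4, Itgb7, Itgb1 and Fermt3 were again lower in every knockout, and Itgae and Itgad again overlapped.

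**Figure D4:**
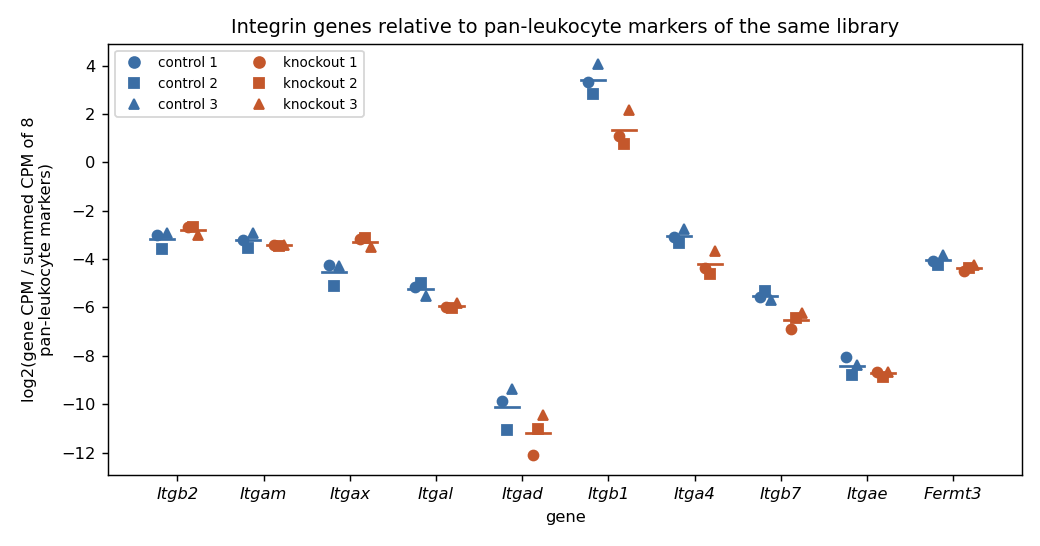
Log2 ratio of each integrin gene to the summed CPM of 8 pan-leukocyte markers, 1 point per library with a line at the group mean (blue controls, orange knockouts). Itgax is higher in all 3 knockouts, while Itgal, Itga4, Itgb7, Itgb1 and Fermt3 are lower in all 3.

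Among the genes whose profile over the 6 libraries was most like that of Itgb2 were Abcg1, Tyrobp, Lyz2 and Cd84. Likeness was the root mean square difference of log2 CPM centred on the control mean, which was between 0.0939 and 0.0985 for these 4 genes and had a median of 1.60 over all tested genes. Abcg1 encodes a cholesterol exporter of macrophages and Cd84 a leukocyte surface receptor. Lyz2, a macrophage lysozyme gene, stood at 357, 328 and 286 CPM in the controls and 2012, 2211 and 732 CPM in the knockouts. Tyrobp, a signalling adaptor of myeloid receptors, stood at 16.5, 17.6 and 13.4 and 87.1, 99.8 and 35.1 CPM. The genes most like Itga4 were Sfrp2, Clcn5, Fkbp1b, Cfhr2 and Adcyap1, at 0.0352 to 0.0627 (median 0.487). Sfrp2, a secreted Wnt inhibitor, stood at 185, 196 and 154 CPM in the controls and 288, 281 and 214 CPM in the knockouts. Tyrobp and Lyz2 are members of the signalling and macrophage lists described next.

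The leukocytes that carry these integrins were followed through marker lists, in which no marker was at 0 in all libraries. Over all tested genes 6.5% were called higher and 3.84% lower. Of 12 macrophage and monocyte markers, 10 rose and 1 fell (Mertk, log2 -0.26, SE 0.06), at sums between 697 and 851 CPM in controls and between 1492 and 3816 CPM in knockouts. Of 8 markers of dendritic cells, which carry Itgax, 4 rose: Flt3 (3.55-fold), Cd209a (3.50-fold), Xcr1 (2.43-fold) and Batf3 (2.39-fold). Irf8, Ccr7, Clec9a and Zbtb46 did not pass, with folds of 3.41, 2.86, 1.37 and 1.05. Their edgeR adjusted p was 0.0649, 0.128, 0.08 and 0.572. Dendritic cell marker sums lay between 35.1 and 51.2 CPM in controls and between 61.4 and 95.9 CPM in knockouts. Of 10 T cell markers edgeR called 0 (1 higher at an unadjusted p under 0.05, and 1 called higher by DESeq2), at sums between 8.04 and 22.9 CPM in controls and between 13.8 and 32.3 CPM in knockouts. B cells also carry Itgal, Itga4 and Itgb7. Of 6 B cell markers edgeR called 0 (2 lower at an unadjusted p under 0.05, and 1 called lower by DESeq2). Their median log2 difference was -1.93, and all 6 were highest in control replicate 2, the library with the high sum given above. Of 8 neutrophil markers 7 were tested and edgeR called 1, Csf3r, higher by 4.71-fold. At an unadjusted p under 0.05, 4 were higher, and DESeq2 called 3 higher. Their sums lay between 5.86 and 12.6 CPM in controls and between 12.7 and 56.5 CPM in knockouts. NK cell markers were low, at sums between 0.628 and 1.69 CPM in controls and between 2.82 and 3.40 CPM in knockouts, and 2 of 5 tested rose (Klrd1 and Klrb1c). Of 6 endothelial markers 1 rose (Cdh5, 1.25-fold), and of 5 fibroblast markers 3 rose (Pdgfra, Lum and Dcn). The marker genes of single cell types named here were chosen after their values were seen. The part of each cell type in the integrin levels was not tested.

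Most genes listed for Src and Syk family signalling rose. The list holds adaptors and an Fc receptor besides kinases, and of its 12 genes 9 rose and 0 fell (median log2 1.65). Over all tested genes 6.5% were called higher and 3.84% lower. Tyrobp rose 4.68-fold from 15.8 ± 2.19 to 74.0 ± 34.3 CPM. The Fc receptor gamma chain gene Fcer1g rose 4.19-fold and the inhibitory Fc receptor gene Fcgr2b 3.33-fold. The edgeR adjusted p of these 3 genes lay between 0.03 and 0.0328. Syk, Btk and Vav3, named after their values were seen, did not pass, with folds of 2.61, 2.88 and 1.43. Their edgeR adjusted p was 0.0716, 0.0915 and 0.109. Among 20 tested activation and adaptor genes edgeR called 0 higher (8 at an unadjusted p under 0.05, and 6 by DESeq2) and 5 lower (median log2 0.17). Those that fell were Vcl, the vinculin gene (1.49-fold lower), Ilk, the integrin-linked kinase gene (1.27-fold), Fermt2, the talin gene Tln1 (1.28-fold) and the filamin gene Flna (1.5-fold). Smooth muscle is among the cells that express them, and its part in their levels was not tested. The adaptors of blood cells Fyb and Apbb1ip, named after their values were seen, had folds of 2.14 and 2.11 with adjusted p of 0.0515 and 0.0518.

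Of 17 tested ligand genes 6 rose and 0 fell (median log2 0.20), against 6.5% and 3.84% of all tested genes. Vcam1, the endothelial ligand of VLA-4, rose 3.49-fold from 146 ± 7.99 to 509.5 ± 232 CPM, and C3, whose fragment iC3b binds Mac-1 and CD11c/CD18, rose 2.07-fold from 829.5 ± 134 to 1719 ± 405 CPM. Cdh1, the E-cadherin ligand of the Itgae receptor, rose 5.25-fold but only from 0.235 ± 0.0977 to 1.24 ± 0.539 CPM, and Jam2, a junctional ligand of VLA-4, rose 1.36-fold. Spp1 and F11r were the others. Icam1, the main ligand of LFA-1 and Mac-1, did not pass, at 46.8 ± 5.11 CPM (controls) against 68.6 ± 12.9 CPM (knockouts) (log2 0.55, SE 0.15, edgeR adjusted p = 0.064); Icam1, Spp1 and F11r were named after their values were seen. Madcam1, the gut ligand of Itga4 with Itgb7, was under the filter, at 0.0127 ± 0.0110 CPM (controls) against 0.0189 ± 0.0189 CPM (knockouts).

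Among 17 tested integrin genes outside the 10, 2 rose and 4 fell (median log2 -0.12), against 6.5% and 3.84% of all tested genes. The alpha genes Itga9 and Itga7, the latter a laminin receptor chain of muscle, fell from 903 ± 66.6 to 597 ± 67.9 and from 259 ± 3.41 to 172 ± 25.2 CPM (each 1.51-fold lower), and Itgb3, the beta chain of the vitronectin receptor, was 1.46-fold lower. Itga2, a collagen receptor chain, rose 2.25-fold to 9.19 ± 2.48 CPM. The others called were Itga3 (1.44-fold lower) and the laminin receptor chain Itga6 (2.42-fold higher), named after their values were seen. The edgeR adjusted p of these 6 lay between 0.0304 and 0.0437. Across the 4 lists 17 genes rose and 9 fell. With any library other than knockout replicate 3 left out edgeR called 0 and 0. At an unadjusted p under 0.05, 26 to 33 were then higher and 12 to 13 lower. Without knockout replicate 3 edgeR called 33 and 13, against 17.2% and 11.4% of all genes.

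**Figure D5:**
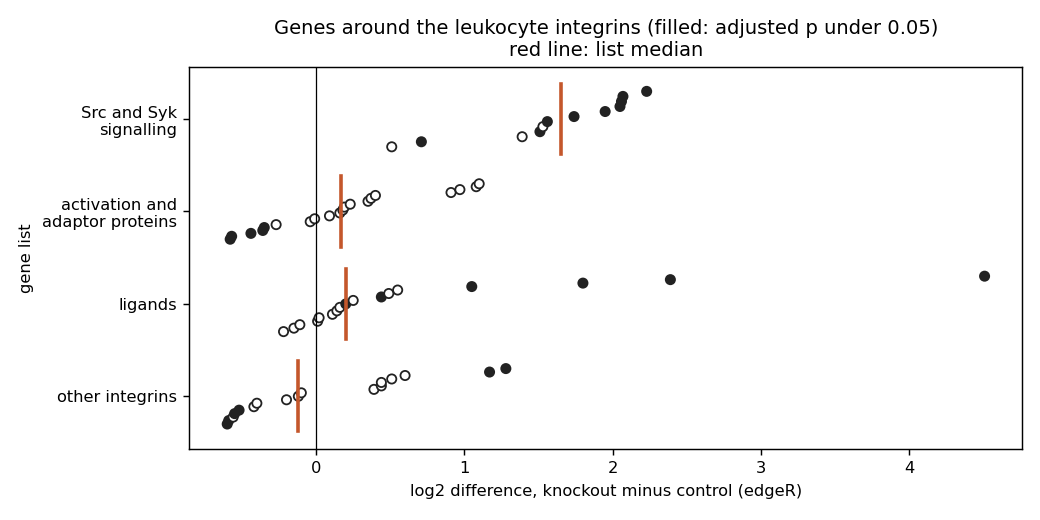
Log2 difference (knockout minus control, edgeR) of each tested gene in 4 lists around the leukocyte integrins; filled points have an adjusted p under 0.05 and the red line is the list median. The Src and Syk signalling list has its median at 1.65, while the medians of the other lists lie between -0.12 and 0.20.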

How the data were processed

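RNA of 6 aorta samples was analysed, 3 per group, with groups and replicate numbers from the labels. The submitters' processing notes list GRCm38 as the build and kallisto 0.46.2, Trim Galore 0.6.5 and FastQC 0.11.8 as tools; RNA quality is stated as an average over samples, and strand is not stated. The deposited estimated counts are not whole numbers, and kallisto shares reads among similar transcripts; they were rounded to whole numbers. The second deposited table was named normalized TPM by the authors, but its column sums differ between libraries, so it was used as a length-scaled signal (rescaled TPM); the rescaling step is not given in the sources used here. Gene models and 3′ UTRs were those of GENCODE mouse release M21 (GRCm38); promoters and miRNAs were those of RefSeq (GRCm38.p6).

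Counts were filtered (filterByExpr, minimum count 10), scaled by TMM and tested with edgeR 4.0.16 in R 4.3.3 over the whole table, with calls at a Benjamini-Hochberg adjusted p under 0.05; the standard error is the log2 difference over the root of F. CPM are edgeR's library-size-scaled counts after TMM. The fit was tested on simulated counts drawn with the fitted dispersions. No simulated library was set between the groups, as knockout replicate 3 was in the data. Ratios used a pseudocount of 0.01 for rescaled TPM and exact permutation tests. Members and lists were chosen with earlier results of these data known. The named genes were the 10 members, the pan-leukocyte markers, up to 4 genes of lowest p per list, and the 5 profiles nearest to Itgb2 and to Itga4 whose mean log2 CPM was 0 or more and which had no predicted or clone name; exceptions are marked, and 2 genes that the rule names are not reported here. Alternatives were other scalings and filters, DESeq2 1.42.0, limma 3.58.1 (voom, or log2 of rescaled TPM), a replicate block, a brown fat covariate, other denominators and each library left out. No 2 libraries of a group agreed within sampling noise (mean chi-square per gene 12.34 to 111.78). Symbols with more than 1 row were read at the reference chromosome ID.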

Additional observations from a re-analysis of the deposited data

How the results depend on the processing

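No member changed direction in any of the 168 comparisons of its log2 difference over 17 alternatives. The member counts, 4 higher and 1 lower, were 4 and 0 with library size alone (8.49% and 2.57% of all genes). They were 1 and 0 with limma-voom (3.21% and 2.96% of all genes). Limma on log2(rescaled TPM + 1) also gave 1 and 0 (2.65% and 1.44%), and with 0.1 added instead 2 and 0 (3.69% and 1.73%). The brown fat covariate gave 0 and 0 (0.581% and 0.477% of all genes), with 5 members higher and 1 lower at an unadjusted p under 0.05. Leaving out 1 library gave between 0 and 6 higher and between 0 and 1 lower (0% to 17.2% and 0% to 11.4% of all genes). The fits without a library also have fewer residual degrees of freedom. In the 4 lists, 17 genes higher and 9 lower became 29 and 13 with DESeq2 (11.7% and 7.28% of all genes). They became 8 and 9 with limma-voom (3.21% and 2.96% of all genes). Limma on log2(rescaled TPM + 1) gave 3 and 6 (2.65% and 1.44% of all genes). With 0.1 added instead they were 7 and 7 (3.69% and 1.73% of all genes), and with the brown fat covariate 0 and 1. Leaving out 1 library gave 0 to 33 higher and 0 to 13 lower in the 4 lists. Brown fat levels, as mean centred log2 CPM, were 1.38, 0.49 and -0.42 in controls 1 to 3 and -1.32, -0.87 and 0.73 in knockouts 1 to 3. The cause of these changes was not tested.

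With the replicate number as a block edgeR called 8 members higher and 0 lower (7.45% and 4.02% of all genes). The labels give the number no further meaning, and deviations from group means of same-numbered libraries correlated at -0.092, 0.234 and 0.0757, so the numbers were not taken as pairs; only those numbered 2 correlated best with each other in both directions. Itgad and Itgae had the fewest counts of the members, both under 3 CPM in every library.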

Other observations

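The 2 deposited tables disagreed for Itgad and Itgb7. The estimated count per unit of rescaled TPM, which follows the transcript length used for a gene, varied over the 6 libraries by a factor of 1.04 for Itgb2, 1.08 for Itgax and 1.14 for Itgal. For Itgad the factor was 2.78 (17.3, 15.4 and 7.16 in controls 1 to 3, 9.34, 15.1 and 19.9 in knockouts 1 to 3), and for Itgb7 it was 1.54 (37.5, 44.9 and 38.9 and 33.7, 51.3 and 33.4). GENCODE lists 5 transcripts of Itgad, of 404 to 4105 bases, and 5 of Itgb7, of 358 to 2683 bases. Control replicate 3 had the highest rescaled TPM of Itgad among controls (1.54) from 11.1 estimated counts, and control replicate 1 had 0.710 from 12.3. The Itgad share of the alpha genes, a difference of -4.82 percentage points in rescaled TPM, was -0.312 when computed from CPM.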
